A study of Homo sapiens with 6 samples.

Results

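A set of 6 genes of cell death and growth arrest was followed in A375 cells, an established human melanoma line, with and without overexpression of cytoglobin. They are BMF, BBC3, BOK and BCL2A1 of the BCL2 family, and AEN and CDKN2A, which are linked to p53. They were taken by gene name from the deposited count table, where all 6 were found among 2778 features. The libraries were 3 of wildtype A375 cells (WT) and 3 of A375 cells overexpressing CYGB (CYGB-OE), all untreated. The sources used here do not give how CYGB was introduced or whether the CYGB-OE cells are 1 clone or a pool, and the labels name no empty-vector control. Separate cultures are not named in the labels either, so a p-value here covers the spread among these libraries alone, and that spread may be technical.

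Proteins of the BCL2 family decide whether the outer mitochondrial membrane is breached during apoptosis. Survival proteins such as BCL2 and BCL2A1 hold back the pore-forming members, and BH3-only proteins such as BMF and BBC3 bind the survival proteins and release that block. The transcription factor p53 switches on several genes of this system, BBC3 and the nuclease gene AEN among them. CDKN2A encodes p16INK4a, an inhibitor of the cyclin D kinases, and, from another first exon, p14ARF, which protects p53 from MDM2. BCL2A1 is a known target of NF-kB and, in the melanocyte lineage, of MITF.

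The table is a selection. All listed features had log2 ratios of CYGB-OE to WT means at or beyond -0.995 or 0.995, so each listed gene differed by about 2-fold at least, and a gene outside the table was not analysed here. Column totals ran from 1533260 to 2801576 counts and are sums over the selected features, not library depths. CYGB had 33 to 47 counts in the WT libraries and 20740 to 26267 in the CYGB-OE libraries, which matches the labels. CYGB-OE replicate 1 stood apart, with a median absolute log2 difference of 0.455 and 0.461 from the other CYGB-OE libraries, against 0.175 to 0.211 for the other pairs within a group. Of 16 melanoma and melanocyte markers, 6 were in the table. The summed normalized count of those 6 was 58801 to 63334 in WT and 17192 to 18293 in CYGB-OE. CSPG4 gave most of it, with means of 53776 and 14615. DCT had 2, 13 and 15 counts in WT and 0 in each CYGB-OE library, and it did not pass the filter on low counts. Defining markers such as MITF, SOX10 and MLANA were outside the table, so the label was not checked on them. Of other cell types, the table held 1 of 9 fibroblast markers (summed normalized count 0 to 1.10 in WT and 2.13 to 29.0 in CYGB-OE) and 2 of 9 keratinocyte markers (13.8 to 26.1 and 73.6 to 93.8). It held 1 of 9 leukocyte markers, LYZ (43.6 to 55.3 and 223 to 341), and 2 of 7 endothelial markers (166 to 191 and 16.8 to 34.1). The part of these markers in the results below was not tested.

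In CYGB-OE 5 of the 6 genes fell and 1 rose (adjusted p under 0.05, edgeR's quasi-likelihood test). The genes for the pro-apoptotic proteins BMF, BBC3 and BOK fell to 21.4%, 35.4% and 41.0% of their WT levels, and BCL2A1, the gene for a survival protein, fell to 8.51%. CDKN2A fell to 23.7%, and AEN rose 3.12-fold. The calls of BBC3 and BOK were lost under 2 of 4 other scalings. The sizes of all 6 changes rest on the scaling too. Under the 4 others the log2 fold change of BMF reached -1.01, against -2.22 here. That of CDKN2A reached -0.86, against -2.07, and that of AEN 2.85, against 1.64. Of all 2468 tested features 99.8% passed, 70.9% lower and 28.9% higher, so passing the test is not particular to these genes. The groups did not overlap for 6 of 6 genes and for 98.3% of all features. In bulk RNA, fewer cells that express a gene and less of its RNA per cell cannot be told apart.

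The promoters of 3 of the genes are shown because these genes mark the range of the responses. BCL2A1 fell most, AEN was the 1 gene that rose, and BBC3 is a p53 target like AEN but fell. The sequences are from RefSeq (GRCh38.p14), from 250 bases before to 50 bases after the RefSeq gene start, written 5′ to 3′ on the gene's strand. That start lies inside the GENCODE gene for all 3, by 250 bases for BCL2A1, 99 for BBC3 and 44 for AEN, so the whole BCL2A1 window falls within the GENCODE gene. Capitals mark the motifs found by searching both strands.
BCL2A1, chr15:79971147-79971446, minus strand: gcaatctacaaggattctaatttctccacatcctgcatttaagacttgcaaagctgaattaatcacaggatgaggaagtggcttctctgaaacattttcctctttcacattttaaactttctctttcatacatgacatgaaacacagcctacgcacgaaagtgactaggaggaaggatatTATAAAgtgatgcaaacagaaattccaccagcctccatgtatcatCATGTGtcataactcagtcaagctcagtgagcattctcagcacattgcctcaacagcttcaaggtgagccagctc
BBC3, chr19:47232618-47232917, minus strand: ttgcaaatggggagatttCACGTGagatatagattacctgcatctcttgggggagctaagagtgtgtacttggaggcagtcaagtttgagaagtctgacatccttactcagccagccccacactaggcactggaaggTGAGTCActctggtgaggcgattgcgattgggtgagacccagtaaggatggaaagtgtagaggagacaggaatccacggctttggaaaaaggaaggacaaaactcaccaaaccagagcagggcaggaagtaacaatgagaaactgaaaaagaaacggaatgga
AEN, chr15:88621090-88621389, plus strand: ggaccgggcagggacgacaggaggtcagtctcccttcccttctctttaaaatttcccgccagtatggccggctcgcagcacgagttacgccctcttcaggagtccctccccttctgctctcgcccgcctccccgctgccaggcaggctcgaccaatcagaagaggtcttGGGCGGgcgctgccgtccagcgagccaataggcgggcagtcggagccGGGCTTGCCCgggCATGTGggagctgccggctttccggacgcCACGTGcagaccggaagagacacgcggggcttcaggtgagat

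All 6 genes matched RefSeq promoters, 8 windows in all, since BMF and CDKN2A have 2 starts each. The BOK start lies 7321 bases inside the GENCODE gene. Positions are counted from the start base as 0. The BCL2A1 window holds TATAAA at -70 to -65 and CATGTG, a variant of the E-box read by the MITF family, at -25 to -20. Its GC content is 41.0%, against a median of 58.7% over 35116 promoters of this length. The BBC3 window holds the E-box CACGTG at -232 to -227 and the AP-1 site TGANTCA at -113 to -107. The AEN window holds a match to the p53 half-site consensus at -34 to -25, CATGTG at -21 to -16, CACGTG at 8 to 13 and the GC box GGGCGG at -81 to -76. The motifs printed in capitals do not overlap one another. TATAAA occurs in 11.5% of all promoters, CACGTG in 7.26%, CATGTG in 11.1%, TGANTCA in 7.71%, GGGCGG in 45.0% and the p53 half-site consensus in 6.63%. The NF-kB consensus, found in 11.3% of all promoters, was matched in 1 of the 8 windows, the upstream BMF promoter. These matches are letters in a window and not sites of measured binding.

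BMF, a BH3-only protein that is held on the cytoskeleton and released under stress, was lower in CYGB-OE. Its WT counts were 805, 974 and 807 for replicates 1 to 3, and its CYGB-OE counts, in the same order, were 198, 145 and 181. Divided by the scaling factors, the normalized counts were 885, 770 and 858 in WT and 211, 162 and 164 in CYGB-OE. The groups did not overlap, and the highest CYGB-OE library was replicate 1. The mean fell from 838 ± 60.3 to 179 ± 27.7 (SD, n = 3 each), a log2 fold change of -2.22 with an SE of 0.15 (adjusted p = 5.24e-06 by edgeR's quasi-likelihood test).

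BBC3 encodes PUMA, a BH3-only protein that binds the main survival proteins. The normalized counts were 1101, 1102 and 989 in WT and 393, 370 and 369 in CYGB-OE, from 931 to 1394 counts in WT and 331 to 406 in CYGB-OE. Every CYGB-OE library lay below every WT library, and the CYGB-OE libraries differed by a factor of 1.06 from highest to lowest. BBC3 fell from 1064 ± 64.6 to 377 ± 13.4, to 35.4% of the WT level (log2 fold change -1.50 ± 0.11 SE, adjusted p = 7.06e-06 by edgeR).

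BOK, a pore-forming member related to BAX and BAK1, had normalized counts of 995, 1006 and 909 in WT and 416, 372 and 405 in CYGB-OE. The groups did not overlap, and CYGB-OE replicate 1 was close to replicates 2 and 3. BOK fell from 970.0 ± 53.4 to 398 ± 23.0, to 41.0% of the WT level (log2 fold change -1.29 ± 0.11 SE, adjusted p = 1.44e-05 by edgeR). Its change was the smallest of the 6 and, like that of BBC3, depended on how the groups were scaled. TMM scaling over the whole table assumes that most listed features are unchanged and raises all log2 fold changes by 1.20. Under it BOK was at -0.09 (edgeR adjusted p = 0.596) and BBC3 at -0.30 (edgeR adjusted p = 0.0512), neither past the threshold of 0.05.

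BCL2A1 encodes BFL-1, the 1 survival protein among the 6. Its counts were 148, 208 and 173 in WT and 33, 5 and 3 in CYGB-OE. As normalized counts these were 163, 164 and 184 in WT and 35.2, 5.58 and 2.73 in CYGB-OE. All CYGB-OE libraries lay below WT, but replicate 1 kept a level 12.9 times that of replicate 3. The mean fell from 170 ± 11.7 to 14.5 ± 18.0 (log2 fold change -3.57 ± 0.68 SE, adjusted p = 0.0018 by edgeR). Leaving out CYGB-OE replicate 1 moved it to -5.36 (SE 0.30; edgeR adjusted p = 1.52e-11). With 5 and 3 counts left in CYGB-OE, that SE does not give the precision of the fold. Adjusted over all 58780 annotated genes, with those outside the table counted as not significant, the adjusted p of BCL2A1 was 0.0428, and those of the other 5 genes were at most 0.000617.

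**Figure D1:**
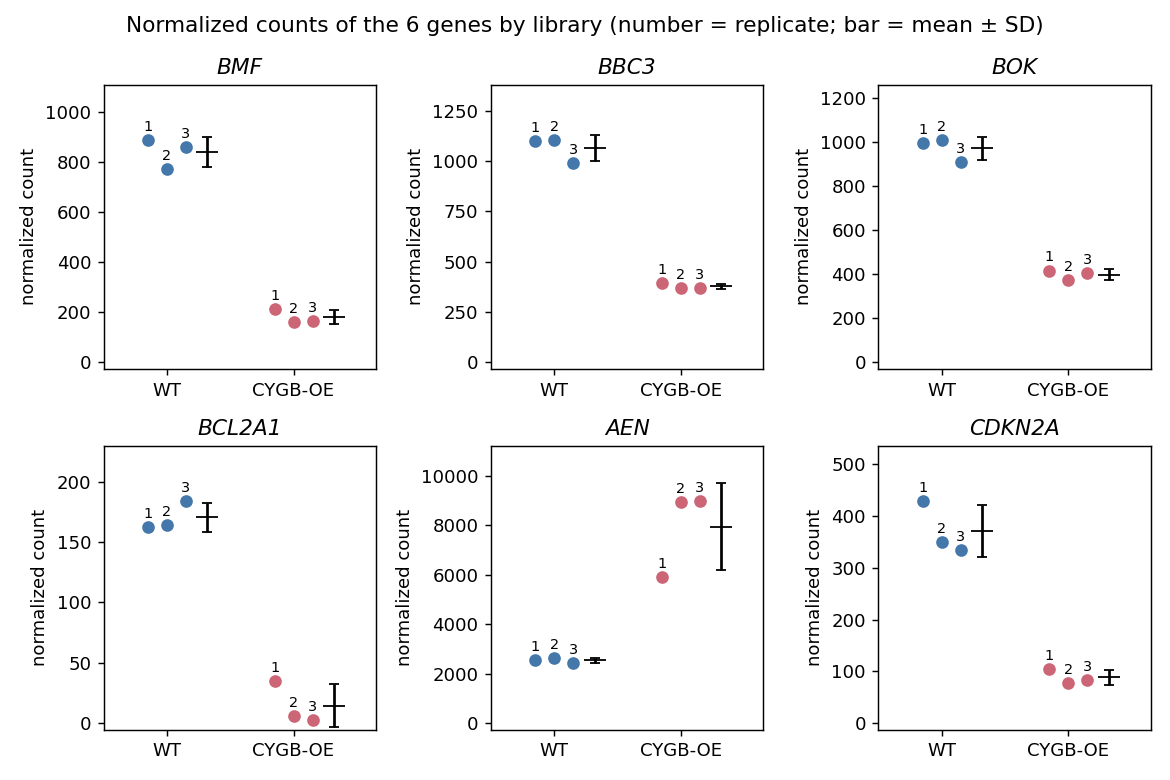
Normalized counts of BMF, BBC3, BOK, BCL2A1, AEN and CDKN2A (y axes, linear, a separate scale for each gene) in the 3 WT and 3 CYGB-OE libraries (points, numbered by replicate), with the mean and SD beside them. The groups do not overlap for any of the 6 genes, and CYGB-OE replicate 1 lies nearer to WT than replicates 2 and 3 for BMF, BBC3, BOK, BCL2A1, AEN and CDKN2A.

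AEN, the apoptosis-enhancing nuclease, was the only gene of the 6 that rose. The normalized counts were 2558, 2638 and 2424 in WT and 5917, 8926 and 8972 in CYGB-OE, from 2281 to 3338 counts in WT and 5547 to 9873 in CYGB-OE. Replicates 2 and 3 of CYGB-OE were nearly equal, and replicate 1 was lower but above every WT library. The mean rose from 2540 ± 108 to 7938 ± 1751, a log2 fold change of 1.64 ± 0.16 (SE; adjusted p = 2.59e-05 by edgeR). Without CYGB-OE replicate 1 it was 1.82 (SE 0.06, edgeR adjusted p = 5.19e-15). In that refit the SE and the adjusted p were smaller for all 6 genes, so their drop is not particular to AEN.

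CDKN2A was lower in CYGB-OE. The table has 1 count for the gene, so p16INK4a and p14ARF transcripts cannot be told apart. The normalized counts were 429, 350 and 335 in WT and 103, 77.1 and 83.6 in CYGB-OE, from 315 to 443 counts in WT and 69 to 97 in CYGB-OE. The lowest WT library was above the highest CYGB-OE library by more than the range of either group. CDKN2A fell from 371 ± 50.5 to 88.0 ± 13.8, to 23.7% of the WT level (log2 fold change -2.07 ± 0.18 SE, adjusted p = 1.67e-05 by edgeR).

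All 6 genes passed the filter on low counts. CYGB-OE replicate 1 was the CYGB-OE library nearest to WT in each of the 6 genes. Over all tested features replicate 1 was instead the farthest from WT. Its median absolute log2 difference from the WT libraries was 1.57 to 1.62, against 1.43 to 1.51 for replicates 2 and 3. The median log2 fold change over all tested features was -1.29, the same as that of BOK. Among the 1754 tested features with a log2 fold change below 0, 4.73% had a larger change than BCL2A1, 21.3% than BMF, 25.7% than CDKN2A, 53.8% than BBC3 and 70.5% than BOK. Among the 714 above 0, 37.4% had a larger change than AEN. BCL2A1 thus lay in the lower tail of the table, while BBC3 and BOK lay among its many moderate falls.

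**Figure D2:**
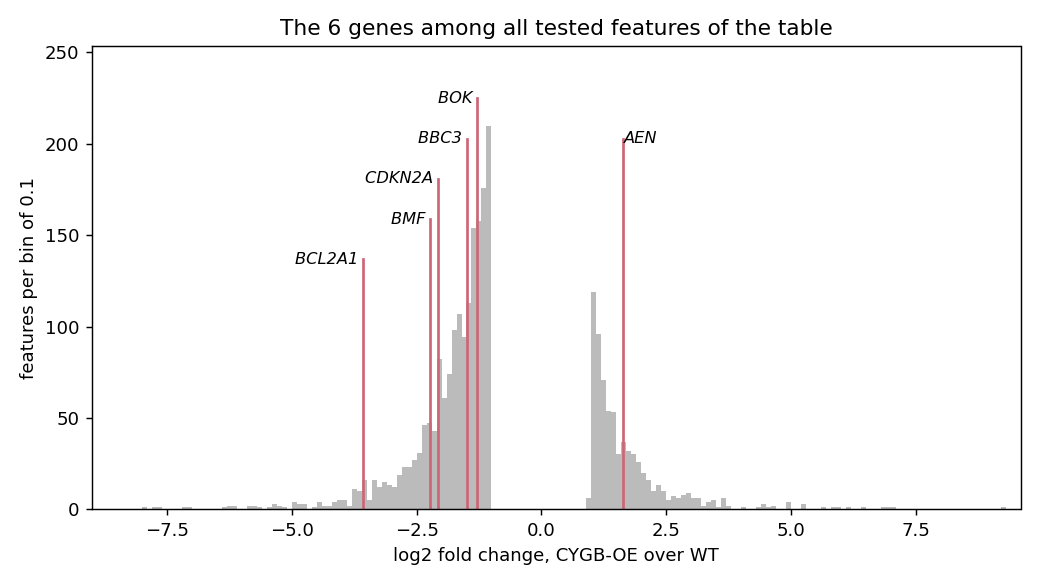
Histogram of the log2 fold change of CYGB-OE over WT (x axis) for the 2468 tested features in bins of 0.1 (y axis, number of features), with the 6 genes marked by lines whose heights carry no value. The empty middle is the selection of the table; BCL2A1 at -3.57 lies in the tail, BOK at -1.29 near the inner edge, and AEN at 1.64 alone of the 6 on the higher side.

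Under the 4 other scalings the 6 directions held: BMF ranged up to -1.01, CDKN2A up to -0.86, BCL2A1 up to -2.36 and AEN up to 2.85. These scalings raised log2 fold changes by at most about 1.20, and the median of the features below 0 was -1.57. A kept direction is therefore not particular to these genes. BBC3 and BOK stayed below 0 in each of these scalings but lost their calls under TMM over the table and DESeq2 size factors. Leaving out any 1 library kept all 6 calls, but nearly all tested features were called in such refits. Without WT replicate 1, for example, 1761 features were lower and 736 higher of 2541 tested. In these refits BMF ran from -2.36 to -2.16, BBC3 from -1.55 to -1.47, BOK from -1.33 to -1.24 and CDKN2A from -2.20 to -1.96.

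**Figure D3:**
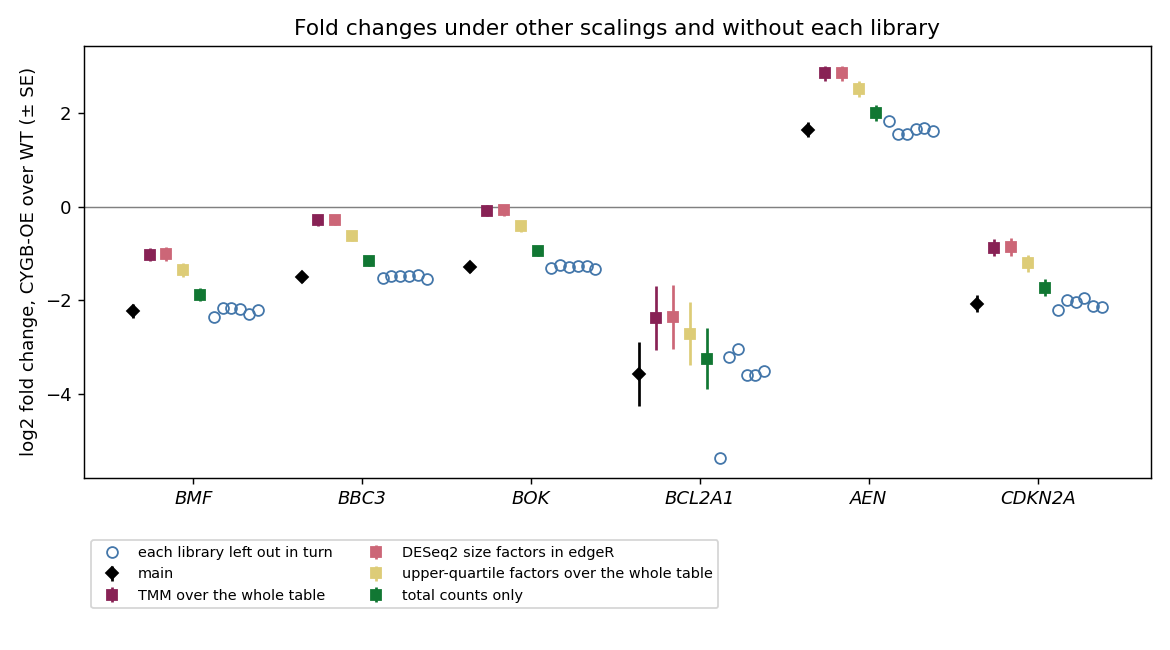
Log2 fold change of CYGB-OE over WT (y axis) for each of the 6 genes, with the scaling used in the text (black, ± SE), 4 other scalings (squares, ± SE) and each library left out in turn (open circles, no error drawn). BBC3 and BOK come close to 0 under TMM and DESeq2 size factors, and BCL2A1 falls to -5.36 without CYGB-OE replicate 1.

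Ratios of 2 genes within a library do not depend on the scaling between libraries, so they compare the pro-apoptotic genes with BCL2A1 directly. They are given as a description with no test, as log2 of the ratio of counts with 0.5 added to each. The log2 ratio of BMF to BCL2A1 was 2.44, 2.22 and 2.22 in WT and 2.57, 4.73 and 5.70 in CYGB-OE. The groups did not overlap, but CYGB-OE replicate 1 lay just above WT. The log2 ratio of BBC3 to BCL2A1 was 2.75, 2.74 and 2.42 in WT and 3.46, 5.91 and 6.86 in CYGB-OE. That of BOK to BCL2A1 was 2.61, 2.61 and 2.30 in WT and 3.54, 5.92 and 6.995 in CYGB-OE. Although BMF, BBC3 and BOK fell, BCL2A1 fell further, so each pro-apoptotic gene was higher relative to it in CYGB-OE. Only 4.73% of the 1754 tested features below 0 fell more than BCL2A1. A higher level relative to BCL2A1 is therefore not particular to the pro-apoptotic genes.

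The mean log2 ratio to BCL2A1 was higher in CYGB-OE than in WT by 2.04 for BMF, 2.77 for BBC3 and 2.98 for BOK, with an SD over the CYGB-OE libraries of 1.60, 1.75 and 1.77. Without CYGB-OE replicate 1 the differences were 2.92, 3.75 and 3.95, and without CYGB-OE replicate 3 they were 1.35, 2.05 and 2.23. BCL2A1 rests on 3 and 5 counts in 2 of the CYGB-OE libraries, which limits the precision of these ratios. With 5 added to each count in place of 0.5, the differences were 1.36, 2.07 and 2.28. BOK and BBC3 moved almost in step: their log2 ratio was -0.13 ± 0.01 in WT and 0.08 ± 0.06 in CYGB-OE, without overlap. Both lay among the many moderate falls of the table, and neither was among the 3 genes with profiles nearest to the other. The log2 ratio of CDKN2A to BMF was -1.18 ± 0.16 in WT and -1.02 ± 0.05 in CYGB-OE, and its groups overlapped. AEN and BBC3, both p53 targets, moved apart, from a log2 ratio of 1.26 ± 0.04 in WT to 4.37 ± 0.40 in CYGB-OE. Any listed gene that rose must part from any that fell, since the selection leaves a gap of 1.99 in log2 between them. Moving apart is therefore not particular to these 2 genes or to p53 targets.

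**Figure D4:**
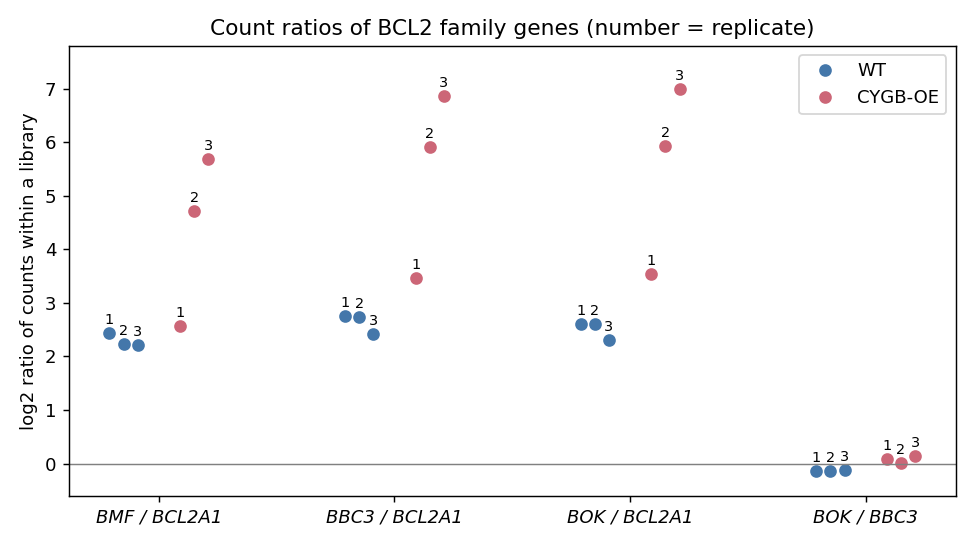
Log2 ratio of counts within a library (y axis) for BMF, BBC3 and BOK over BCL2A1 and for BOK over BBC3, in the 3 WT and 3 CYGB-OE libraries (points, numbered by replicate). The ratios to BCL2A1 spread widely in CYGB-OE, from 2.57 to 5.70 for BMF, while BOK over BBC3 stays near 0 in all libraries.

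Levels between genes were compared as normalized counts per kilobase of annotated exons (GENCODE release 29), which takes all exons as used. In WT, AEN was highest at 422 ± 18.0, followed by BOK at 358 ± 19.7, BBC3 at 335 ± 20.3, BCL2A1 at 156 ± 10.8, BMF at 154 ± 11.1 and CDKN2A at 85.8 ± 11.7. BOK and BBC3 overlapped between libraries, as did BCL2A1 and BMF. In CYGB-OE the order was AEN at 1319 ± 291, BOK at 147 ± 8.50, BBC3 at 119 ± 4.22, BMF at 32.9 ± 5.09, CDKN2A at 20.3 ± 3.18 and BCL2A1 at 13.3 ± 16.5. Here BCL2A1, which reached 32.3 per kilobase in CYGB-OE replicate 1, overlapped with both CDKN2A and BMF, whose lowest library was at 29.7. BCL2A1 had the lowest mean of the 6.

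The genes lie apart in the genome (GRCh38, GENCODE release 29). BMF (ENSG00000104081) is on chromosome 15 at 40087890 to 40108892, BCL2A1 (ENSG00000140379) on chromosome 15 at 79960889 to 79971446 and AEN (ENSG00000181026) on chromosome 15 at 88621296 to 88632282. BBC3 (ENSG00000105327) is on chromosome 19 at 47220822 to 47232766, BOK (ENSG00000176720) on chromosome 2 at 241551424 to 241574138 and CDKN2A (ENSG00000147889) on chromosome 9 at 21967753 to 21995301. The strand setting of the counting is not given, so reads of antisense partners may be included. BMF-AS1, BOK-AS1 and CDKN2B-AS1 share 8.46%, 7.41% and 7.88% of the exonic bases of BMF, BOK and CDKN2A. No gene overlaps BCL2A1 or AEN in this annotation.

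Other genes of the BCL2 family were mostly outside the table. BCL2A1 was the 1 of 6 survival genes listed and BOK the 1 of 3 pore-forming genes. Of 8 BH3-only genes 3 were listed, and all 3 fell, as did 70.9% of all tested features. The median log2 fold change of the 3 was -1.50, against -1.29 over all features. The third was BIK, a BH3-only protein of the endoplasmic reticulum, with counts of 35, 44 and 35 in WT and 20, 9 and 13 in CYGB-OE (log2 fold change -1.35 ± 0.33 SE, adjusted p = 0.00347 by edgeR). BIK lost its call when adjusted over all annotated genes (edgeR adjusted p = 0.0827) and under TMM over the table, where 1 of the 3 BH3-only genes stayed lower. Of 11 genes for more distant relatives and partners, BCLAF1 was listed. It encodes a nuclear protein that was found as a BCL2 partner, and it rose from 3415 ± 151 normalized counts in WT to 8080 ± 1193 (log2 fold change 1.24).

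Of 58 p53 target genes, 9 were in the table, of which 2 rose and 7 fell, with 5 of those 7 still below 0 under TMM over the table. Their median log2 fold change was -1.29, as over all features. Of all tested features 70.9% were called lower and 28.9% higher, so a majority of falls is not particular to p53 targets. Beside AEN, SFN rose, which encodes 14-3-3 sigma, an inhibitor of the G2/M step. Its counts were 45, 37 and 27 in WT and 116, 142 and 180 in CYGB-OE (log2 fold change 2.06 ± 0.26 SE, adjusted p = 0.000104 by edgeR).

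Among the p53 targets that fell beside BBC3, NINJ1, which acts in membrane rupture, had a log2 fold change of -1.44, and TRIM22, an antiviral ubiquitin ligase, of -1.29. GDF15, a stress-induced cytokine, had counts of 366, 489 and 420 in WT and 105, 198 and 266 in CYGB-OE, with a log2 fold change of -1.10 that turned to 0.10 under TMM over the table. IGFBP3, which binds insulin-like growth factors, had counts of 5881, 9280 and 5974 in WT and 3160, 645 and 831 in CYGB-OE. Its log2 fold change was -2.06 (SE 0.66; edgeR adjusted p = 0.0218), and -3.19 without CYGB-OE replicate 1. TNFRSF10C, a decoy receptor for TRAIL, had a log2 fold change of -1.47 (edgeR adjusted p = 0.0166). It was -2.23 without CYGB-OE replicate 1, and the call was lost without WT replicate 3 or CYGB-OE replicate 2 (adjusted p = 0.0587 and 0.0518 by edgeR). With TMM over the table edgeR called 0 of the 7 lower, or 1, BBC3, at an unadjusted p under 0.05, and the counts with DESeq2 size factors were also 0 and 1. Adjusted over all annotated genes, 4 were called.

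**Figure D5:**
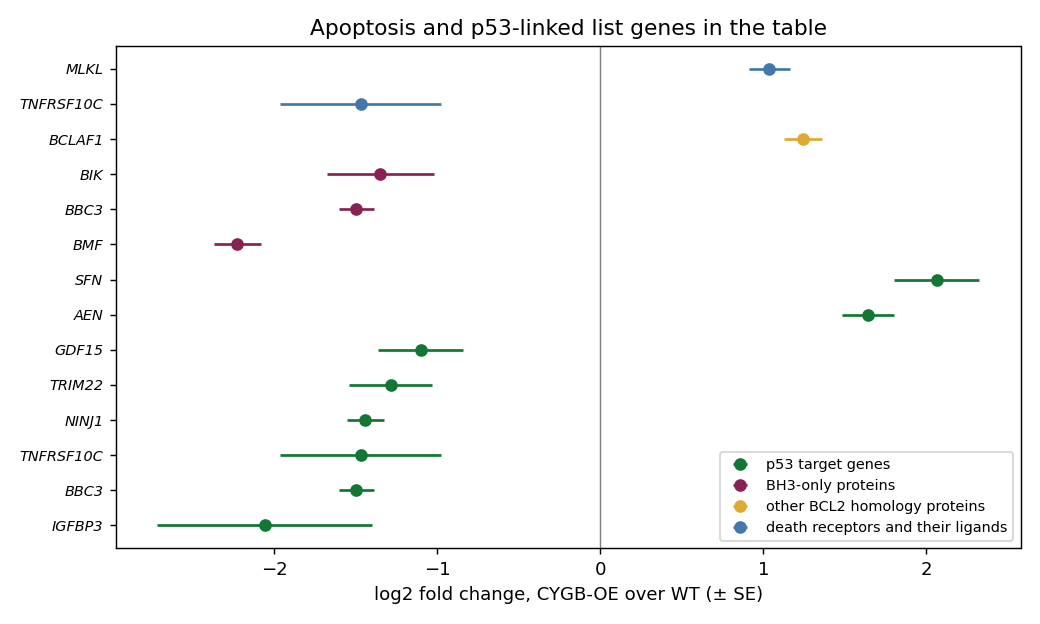
Log2 fold change of CYGB-OE over WT (x axis, ± SE) for the named p53 target genes, BH3-only genes, BCLAF1 and death receptor genes that were tested (y axis; BBC3 and TNFRSF10C appear in 2 lists). SFN, AEN, BCLAF1 and MLKL lie above 0 and the others below it.

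Few other genes of cell death were in the table, which held 2611 of the 58780 annotated genes. Whether they were fewer than other genes was not tested. Of 18 genes for death receptors, their ligands and adaptors, TNFRSF10C and MLKL were listed. MLKL, the executor of necroptosis, rose from 599.7 ± 37.3 normalized counts in WT to 1230 ± 162 (log2 fold change 1.04 ± 0.13 SE, adjusted p = 8.1e-05 by edgeR). Of 19 caspase and apoptosome genes only CASP1, an inflammatory caspase, was listed. It had 9, 31 and 15 counts in WT and 2, 0 and 2 in CYGB-OE and did not pass the filter. None of 7 inhibitor of apoptosis genes was listed. CDKN2A was the 1 of 18 CDK inhibitor and partner genes, and none of 6 other genes around CDKN2A at 9p21 was in the table.

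For each of the 6 genes the closest profiles among 1414 named features were taken, by the root mean square difference of centred log2(normalized count + 1) over the 6 libraries. For BMF these were CYP27A1, AGAP2 and YPEL4 (0.083, 0.098 and 0.120), and for CDKN2A S1PR4, AF127577.4 and LHFPL6 (0.101, 0.103 and 0.116). BBC3 was nearest to ZNF581, ESPN and RTN4RL2 (0.040, 0.054 and 0.055) and BOK to MCTP1, FSTL3 and APOE (0.056, 0.058 and 0.059). BCL2A1 had less close matches, AC008760.2, NKILA and C15orf48 (0.223, 0.237 and 0.243), whose log2 fold changes were -3.84, -3.12 and -3.71. AEN was nearest to MEIS2, EPHA4 and RAET1E (0.084, 0.098 and 0.112).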

How the data were processed

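RNA of 3 WT and 3 CYGB-OE libraries was captured on oligo-dT beads, per the labels' protocols. Trimmomatic 0.36, STAR 2.5.2b, featureCounts, Subread 1.5.2 and GRCh38 are named in the submitters' processing notes; the sources used here do not give the annotation, the strand setting or the rule that selected features. The deposited values are raw counts for each feature, per the file headers. Gene models came from GENCODE release 29, in which 2611 of 2615 identifiers were found.

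Groups were compared in edgeR 4.0.16 (R 4.3.3) by the quasi-likelihood F test, two-sided, with filterByExpr (minimum count 10), group as the only term and Benjamini-Hochberg adjustment over 2468 features. Because the table is selected, TMM was applied inside each group alone. The groups were then aligned by centring at 0 the gap in the log2 ratios, 1.99 wide. This assumes a symmetric selection. Dividing counts by the resulting factors gave normalized counts. The SE of an edgeR fold change is the absolute log2 fold change divided by the square root of F. It was thus derived from the test and not estimated directly.

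The features were selected on these libraries, so calls are not independent evidence. The 6 genes, the lists and the rule for named genes were chosen with earlier results of these data known. That rule named the 6 genes, of each pathway list all tested genes or the 8 with the largest change, and the 3 nearest profiles (mean normalized count of at least 50). Alternatives were 4 scalings, no filter, DESeq2 1.42.0, limma-voom (limma 3.58.1), the replicate number as a term, adjustment over all annotated genes, 1 or 5 added to counts in the ratios and leaving out each library with the other scaling factors kept. A further gene list is not reported here. Tests were also run on simulated counts in which most features were unchanged. Nearly all tested features of this table were called, so that run does not cover its selection and lends the calls no weight.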

Additional observations from a re-analysis of the deposited data

How the results depend on the processing

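The directions of the 6 genes held under all 15 alternatives run for each. AEN, BMF, BCL2A1 and CDKN2A also kept their calls in all of them. The 4 other scalings raised the log2 fold changes and each left 714 features higher, against 713 in the main fit. The call of AEN was thus not put at risk by them. How many of all features kept direction and call throughout was not counted. The level between the groups rests on the empty band, and other scalings raised all log2 fold changes by 1.20 (TMM over the table), 1.20 (DESeq2 size factors), 0.86 (upper quartile) and 0.34 (total counts). TMM and DESeq2 size factors each left 3 of the 6 genes lower past the threshold, with BBC3 at -0.30 and -0.29 and BOK at -0.086 and -0.078. They left 1 BH3-only gene and 0 p53 targets lower, and GDF15 turned to 0.10 and 0.10. The upper quartile left 2 p53 targets lower, and adjustment over all annotated genes left 4. The number of features lower past the threshold, 1749, became 480, 476 and 910 under TMM, DESeq2 size factors and the upper quartile, beside 714 higher in each. Lower calls were then 40.2%, 40.0% and 56.0% of all calls. Leaving out 1 library gave 1761 to 1840 lower and 708 to 751 higher features, and 6 to 7 p53 targets lower. Same-numbered libraries did not deviate together (correlations of -0.01, -0.07 and -0.0005). With 3 libraries in each group this cannot show whether the numbers pair the libraries. With the replicate block 5 of the 6 genes were lower and 1 higher, with 1750 and 712 features, and BCL2A1 was at -3.84. The counts of BCL2A1 in CYGB-OE replicates 2 and 3 limit the precision of its fold.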

Other observations

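The surroundings of the 6 genes were looked at after their values were seen, as all GENCODE genes within 1 Mb. BMF had 7 of 85 such genes in the table, of which 4 were higher and 3 lower. The nearest was the long non-coding RNA AC021755.2, 9.2 kb away, with a log2 fold change of -2.93 (edgeR adjusted p = 0.000133). BBC3 had 8 of 89, of which 2 were higher and 6 lower, the largest change being that of PLA2G4C, a phospholipase A2 gene, at -4.06. AEN, which rose, had 5 of 44, of which 2 passed the filter, both lower: ACAN (aggrecan) at 171.2 kb and HAPLN3, a link protein gene, at 245.0 kb, with log2 fold changes of -3.31 and -1.32. BCL2A1 and CDKN2A had 1 listed neighbour each, the non-coding AC016705.2 at -2.76 and LINC01239 at -1.02. BOK had 1, GPR35, which did not pass the filter. Of all tested features 70.9% were called lower and 28.9% higher, so called neighbours are not particular to these genes. On chromosome 15 76.2% of tested features were lower, and on chromosome 19 80.4%.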
